A study of Mus musculus with 6 samples.

Results

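The nuclear genes that encode subunits of oxidative phosphorylation complexes I to V were followed in Notch-driven mouse T cell acute lymphoblastic leukemia (T-ALL). Members were chosen by symbol alone: Ndufa, Ndufb, Ndufc, Ndufs and Ndufv genes without the Ndufaf assembly factors, Uqcr and Atp5 genes, nuclear Cox4i to Cox8 genes, Sdha, Sdhb, Sdhc, Sdhd and Cyc1. The rule found 83 of 19938 genes, with 34 in complex I, 4 in complex II, 9 in complex III, 19 in complex IV and 17 in complex V. Ndufa4 and its homologue Ndufa4l2 were placed with complex IV, because the Ndufa4 protein is now assigned there. Cox7c and Ndufb4 were represented just by probe sets assigned to more than 1 gene, and Ndufb1 was not named in the annotation used, so these genes were not analysed here.

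The series compared leukemia cells with and without tamoxifen-induced deletion of Zfx, a zinc finger transcription factor. Every leukemia carried a retrovirus for the intracellular part of Notch, a tamoxifen-inducible Cre-ER transgene and a loxP-flanked Zfx allele (Zfx fl/y), so Vehicle cells carried these alleles as well. The 3 independent leukemias, lines 14843, 14844 and 14846, grew in sublethally irradiated secondary recipients, which were given Vehicle or Tamoxifen from day 10 after transplant. Tamoxifen was given by gavage at 5 mg a day for 3 days, and GFP-positive cells were collected by sorting 48 h later, which left 1 Vehicle and 1 Tamoxifen array for each line. The labels call the Vehicle cells ZFX flox and the Tamoxifen cells ZFX null, and the promoter that drives Cre-ER is not given in the sources used here. Without a Tamoxifen group that lacked Cre or the loxP sites, effects of the drug, of Cre and of Zfx loss cannot be told apart.

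Oxidative phosphorylation couples the transport of electrons to the synthesis of ATP at the inner mitochondrial membrane. Complex I takes electrons from NADH and complex II from succinate, ubiquinone passes them to complex III, and cytochrome c carries them on to complex IV, which reduces oxygen. Complexes I, III and IV pump protons, and complex V, the ATP synthase, uses the gradient. Complexes I, III, IV and V mix subunits from the nuclear and mitochondrial genomes, whereas complex II is wholly nuclear, and proliferating T cells use the chain both for ATP and to regenerate oxidised cofactors for biosynthesis.

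Arrays correlated at 0.991 to 0.996 over all probe sets, and their median intensities lay between 202 and 208. The only Zfx probe set did not pass the test, at a Tamoxifen minus Vehicle difference of 0.07 ± 0.06 (SE) and a limma adjusted p of 0.48. Where its probes lie relative to the deleted part is not given in the sources used here, so the deletion was not checked on these arrays, and the groups carry the names in the labels. Of 7 listed T cell markers 6 were measured and lay above the filter on dim genes, with summed intensities of 32678 to 38402 in Vehicle and 30441 to 35266 in Tamoxifen arrays. Of these 6 markers 0 had a difference above 0 (range -0.27 to -0.0066, median -0.06). Their sum was 38402 in Vehicle and 34700 in Tamoxifen arrays of line 14843, 34342 and 35266 in line 14844, and 32678 and 30441 in line 14846, so it was lower with Tamoxifen in lines 14843 and 14846 and higher in line 14844. Erythroid markers (2 of 8 tested, with Klf1 too dim) were at 417 to 445 and 419 to 470, neutrophil and monocyte markers (9 of 12 tested, with Ly6g, Csf1r and Adgre1 too dim) at 2486 to 2928 and 2612 to 3338, and B cell markers (2 of 6 tested, with Cd79a, Ms4a1 and Ebf1 too dim) at 562 to 1037 and 637 to 712. These sums include the genes named as too dim. With Tamoxifen the neutrophil and monocyte sum was higher in each line. It went from 2683 to 2826 in line 14843, 2928 to 3338 in line 14844 and 2486 to 2612 in line 14846. The erythroid sum was higher in lines 14843 and 14846 and lower in line 14844. The B cell sum was higher in lines 14843 and 14844 and lower in line 14846. Summed stroma and endothelium markers fell just short of overlap, at 3148 to 3389 and 3393 to 3563, with 4 of 5 above 0. That sum was also higher with Tamoxifen in each line, from 3148 to 3393, 3365 to 3563 and 3389 to 3466 in lines 14843, 14844 and 14846. Among all tested genes, taken singly, 23.7% had no overlap and 48.8% had the same direction in 3 lines. None of these markers passed the adjusted threshold in limma, against 6.23% of all tested genes. At an unadjusted p under 0.05 there were 3. Itgam and Lyz2 were 2 of 9 neutrophil and monocyte markers, at 0.29 ± 0.09 (SE) and 0.24 ± 0.08, both higher in each line. Of those 9 markers 6 were above 0. Ptcra was 1 of 6 T cell markers, at -0.27 ± 0.08 and lower in each line. An unadjusted p under 0.05 in limma was found for 23.8% of all tested genes. The part of the listed cell type markers in the results below was not tested. In sorted bulk cells, fewer cells of a type and less RNA per cell cannot be told apart.

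Most respiratory chain genes stayed within small bounds between the treatments. Values are log2 intensities, differences are Tamoxifen minus Vehicle from a fit with line as a block, and a gene counted as changed at a limma adjusted p under 0.05 over 13956 genes. Of the 83 members, 82 were bright enough to be tested and Cox7b2, a testis-type isoform of complex IV, was too dim. A single member changed, Ndufv1 of complex I, which rose, and 0 fell. That is 1.22% of the members, against 6.23% of all tested genes in either direction, 1.3% higher and 4.93% lower. The lower genes were 79.1% of all called genes, and 57.7% after each array was centred on the median of the tested genes. At an unadjusted p under 0.05 there were 9 of 82 members, against 23.8% of all tested genes.

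The bounds of the differences were narrow. The 95% intervals of 81 of 82 members lay wholly within a 1.5-fold change in either direction, the exception being Cox7a1, and this held for 93.2% of all tested genes. These intervals come from limma and are not adjusted for the number of genes. No member had a fitted difference over 1.5-fold, against 332 genes, or 2.38%, of all those tested. The members' differences ran from -0.25 for Ndufa8 to 0.37 for Cox7a1, with a median of 0.01 beside 0.03 over all tested genes.

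**Figure D1:**
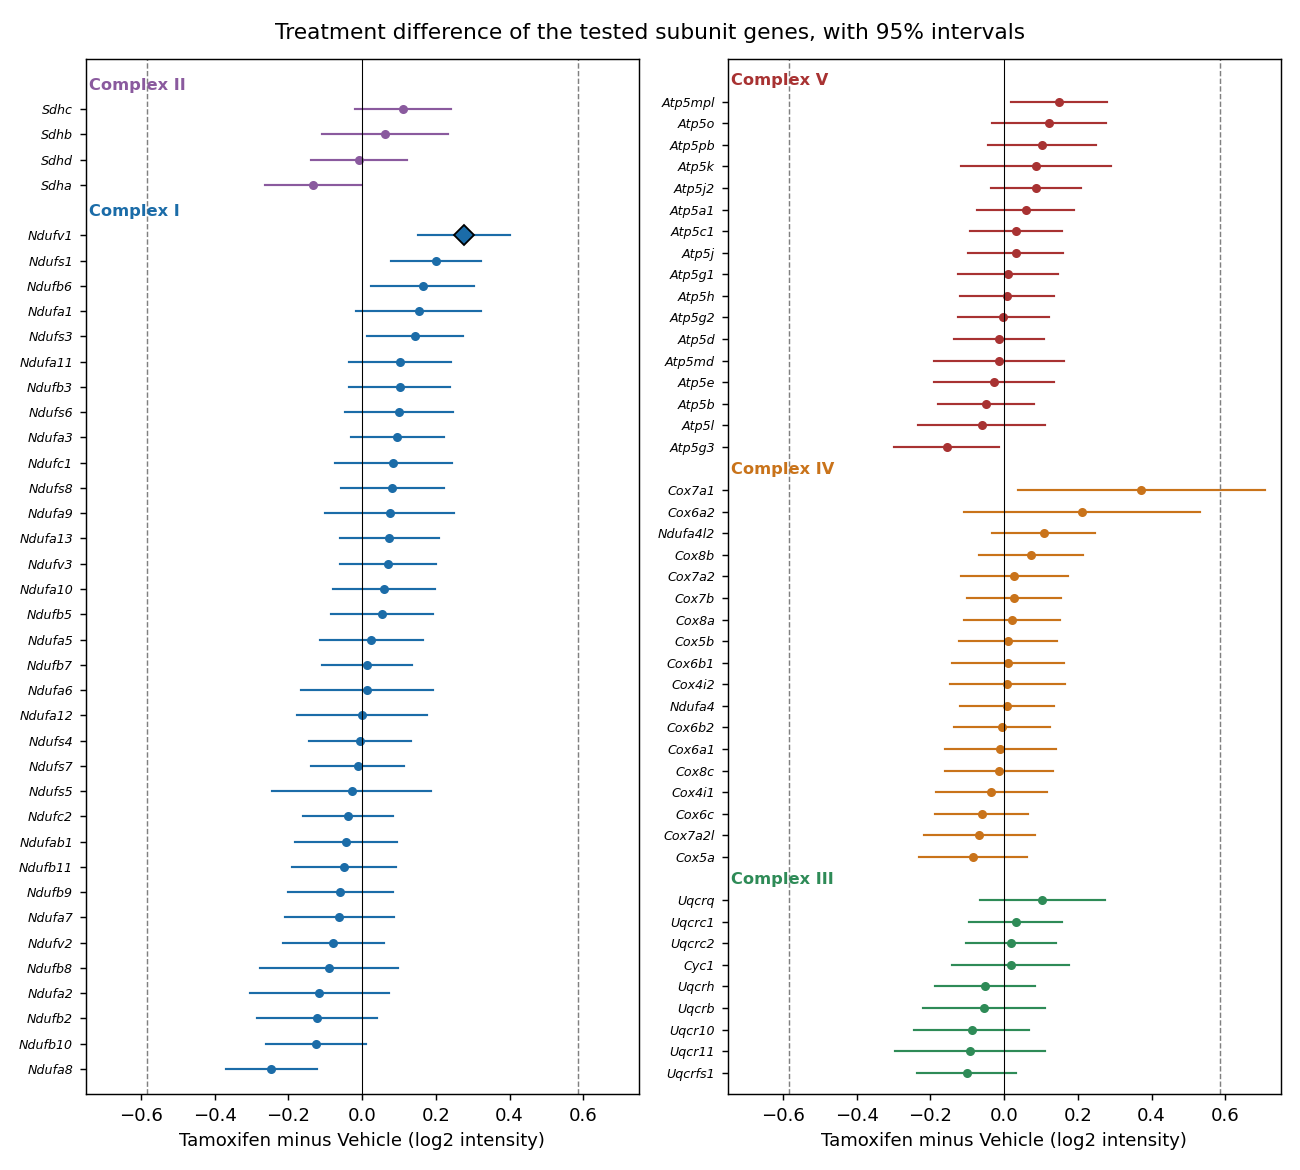
Difference between Tamoxifen and Vehicle (x axis, log2 intensity) for each of the 82 tested subunit genes (y axis), by complex, with 95% intervals from limma as lines; dashed lines mark a 1.5-fold change and the diamond marks Ndufv1, which passed an adjusted p of 0.05. The interval of Cox7a1 alone crosses a dashed line, reaching 0.71.

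There were 46 members above 0 and 36 below, beside 8182 and 5774 of all tested genes. Their SD was 0.10, against 0.21 over all tested genes, which ran from -2.76 to 1.33. The interquartile range of the members was -0.05 to 0.08, and that of all tested genes -0.07 to 0.09. The typical SE was also similar, with medians of 0.056 and 0.059. Centring each array on the median of the tested genes, chosen after seeing the data, moved the members' median from 0.01 to 0.07 and that of all tested genes from 0.03 to 0.08. The sign of the members' median was not stable: it was -0.0026 after centring on the array median, -0.02 after centring on all named genes and -0.0052 without line 14843.

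**Figure D2:**
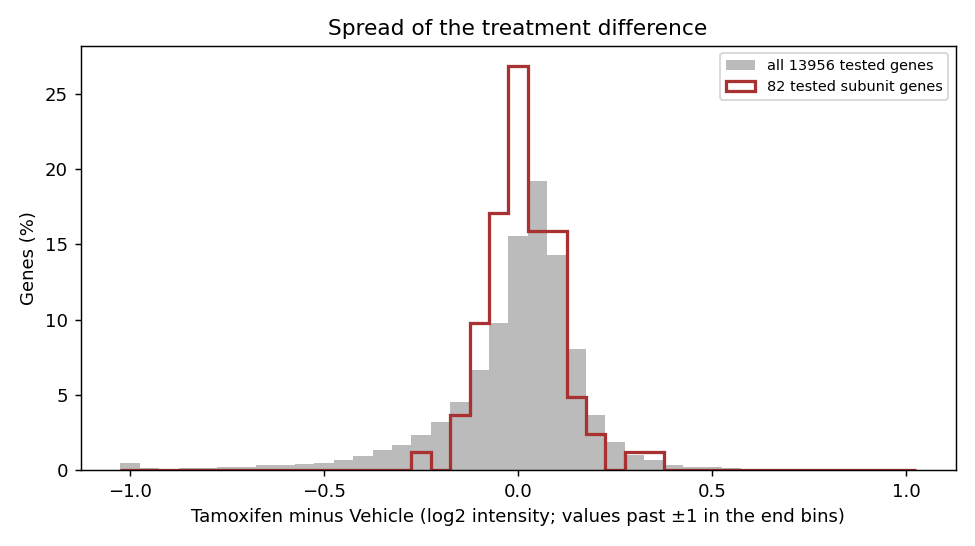
Share of genes (y axis, %) by difference between Tamoxifen and Vehicle (x axis, log2 intensity, bins of equal width) for all 13956 tested genes (grey) and the 82 tested subunit genes (red outline). The subunit genes lie between -0.25 and 0.37, and all tested genes between -2.76 and 1.33, with values past ±1 drawn in the end bins.

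Complex I, the NADH dehydrogenase, held the 1 change. Its core subunits carry the flavin and iron-sulfur clusters of the peripheral arm, in an N module that oxidises NADH and a Q module that reduces ubiquinone. Ndufv1, the subunit that binds NADH and flavin, stood at 11.19, 11.34 and 11.34 in Vehicle arrays of lines 14843, 14844 and 14846, and at 11.46, 11.59 and 11.65 in their Tamoxifen arrays. Every Tamoxifen value was above every Vehicle value, which held for 12.2% of all tested genes, and the lines differed by 0.27, 0.25 and 0.31. The means were 11.29 ± 0.09 and 11.57 ± 0.10 (SD, n = 3 each), and the fitted rise was 0.28 ± 0.05 (SE; 95% interval 0.15 to 0.40), or 1.21-fold, with a limma adjusted p of 0.038. The call depended on the analysis: Ndufv1 passed under 7 of 12 alternatives, with adjusted p from 0.029 to 0.18. It was lost without line as a block, at 0.15, without line 14843, 14844 or 14846, at 0.11, 0.18 and 0.098, and after centring on the median of all named genes, at 0.052.

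Ndufs1, the largest iron-sulfur subunit and the neighbour of Ndufv1 in the N module, had a similar pattern short of the threshold. Its levels were 10.53, 10.67 and 10.72 in Vehicle and 10.74, 10.86 and 10.92 in Tamoxifen arrays. The groups did not overlap, and the difference of 0.20 ± 0.05 (SE) had an adjusted p of 0.080 in limma, which passed under 0 of 12 alternatives (0.051 to 0.29). Ndufv2, the remaining core subunit of that module, pointed the other way at -0.08 ± 0.05, with 0 of 3 lines higher and an adjusted p of 0.43. In the Q module Ndufs3 gave 0.14 ± 0.05, Ndufs8 0.08 ± 0.06 and Ndufs7 -0.01 ± 0.05, with adjusted p of 0.18, 0.42 and 0.91. Ndufs3 was higher in 3 of 3 lines without overlap of the groups, whereas Ndufs7 changed sign after centring on the tested genes. The 6 core subunits measured thus had 4 values above 0 and 2 below, with a median of 0.11 and 1 change.

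The promoters of Ndufv1, the gene that rose, and of Ndufa8, the subunit gene at the lower end, are shown for the motifs they hold. Both run from 250 bases before to 50 bases after the RefSeq start in GRCm38.p6, and capitals mark matches to any of 4 motifs, AGGCCT (Zfx), TGCGCA (core of the Nrf1 motif), CCGGAAG (ETS factors such as Gabpa) and AAGATGG (Yy1), on either strand.

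Ndufv1, chr19:4012706-4013005, minus strand: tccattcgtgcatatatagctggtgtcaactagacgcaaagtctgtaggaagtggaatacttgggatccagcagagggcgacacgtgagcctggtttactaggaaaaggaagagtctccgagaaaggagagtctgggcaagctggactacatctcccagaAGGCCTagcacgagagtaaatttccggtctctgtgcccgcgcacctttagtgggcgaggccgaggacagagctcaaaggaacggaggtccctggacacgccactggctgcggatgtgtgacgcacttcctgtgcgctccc

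Ndufa8, chr2:36049289-36049588, minus strand: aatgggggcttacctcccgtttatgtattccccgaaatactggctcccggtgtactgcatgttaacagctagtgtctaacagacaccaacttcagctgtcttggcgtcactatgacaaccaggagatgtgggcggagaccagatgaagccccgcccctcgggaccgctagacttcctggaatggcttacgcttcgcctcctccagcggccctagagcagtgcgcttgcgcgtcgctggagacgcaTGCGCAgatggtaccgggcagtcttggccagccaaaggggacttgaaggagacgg

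In Ndufv1 the only match was AGGCCT, at bases -90 to -85 counted from 0 at the start. In Ndufa8 it was TGCGCA at -5 to 0. These are letter matches in the windows shown and say nothing of binding in these cells.

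Among accessory subunits of complex I, which surround the core and stabilise it, 0 of 28 changed and 2 had an unadjusted p under 0.05 in limma, Ndufa8 and Ndufb6. Ndufa8, a subunit on the side facing the intermembrane space, had levels of 11.54, 11.65 and 11.65 in Vehicle arrays against 11.30, 11.37 and 11.43 in Tamoxifen arrays. All Tamoxifen values lay below all Vehicle values, as for 11.5% of tested genes, at a difference of -0.25 ± 0.05 (SE). With a limma adjusted p of 0.051 it stood just outside the threshold, and 4 of 12 alternatives placed it inside (range 0.039 to 0.25). Ndufb6 and Ndufa1, small subunits of the membrane arm, gave 0.16 ± 0.06 and 0.15 ± 0.07, and Ndufb10, of the same arm, gave -0.13 ± 0.05 and was lower in 3 of 3 lines with overlapping groups. Ndufa1, Ndufa3 and Ndufa11 were also without overlap, at 0.15, 0.10 and 0.10. The median of the accessory subunits was 0.01, with 15 above and 13 below 0.

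**Figure D3:**
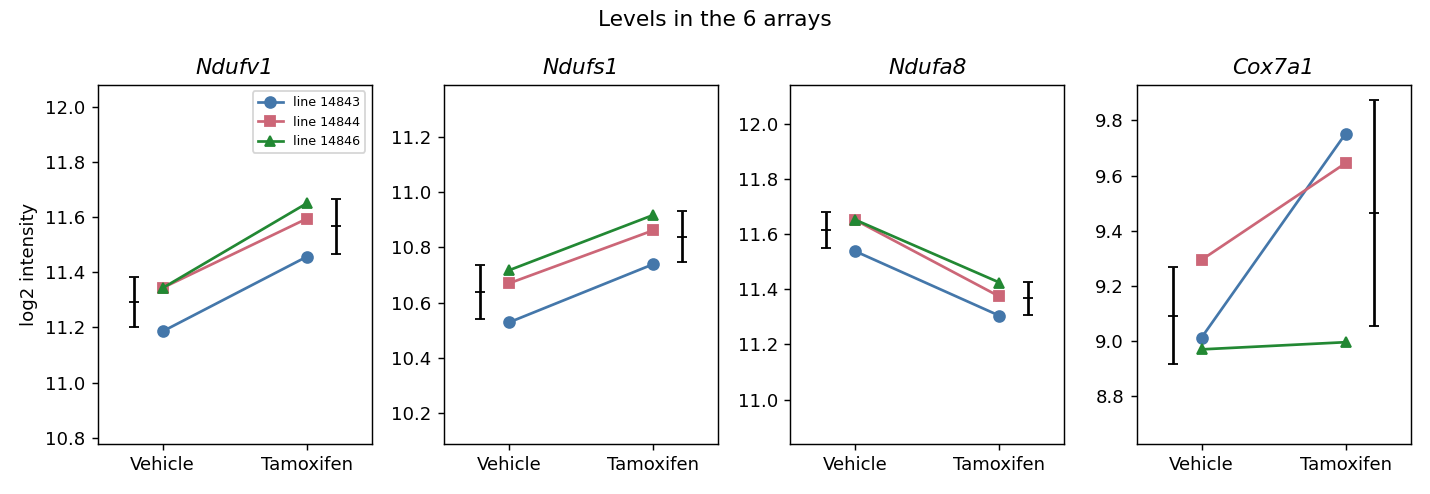
Levels (y axis, log2 intensity, the same span in each panel) of Ndufv1, Ndufs1, Ndufa8 and Cox7a1 in the Vehicle and Tamoxifen arrays (x axis); lines join the 2 arrays of a leukemia, and black bars are the mean ± SD of 3 arrays. Ndufv1 and Ndufs1 are higher and Ndufa8 lower in each line, while Cox7a1 differs by 0.74, 0.35 and 0.03.

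Complex II, succinate dehydrogenase, had 0 changes among 4 genes and 1 unadjusted p under 0.05 in limma, that of Sdha. Sdha, the flavin subunit that oxidises succinate, was at 11.86, 11.92 and 11.91 in Vehicle and 11.67, 11.80 and 11.82 in Tamoxifen arrays. The groups did not overlap, and the difference was -0.13 ± 0.05 (SE; adjusted p = 0.20). Sdhb, the iron-sulfur subunit, gave 0.06 ± 0.07, and the membrane anchors Sdhc and Sdhd gave 0.11 ± 0.05 and -0.0081 ± 0.0519. Sdhc was higher in 3 of 3 lines, and Sdhd changed sign after quantile normalization and after centring on the tested genes. The 4 subunits of the same enzyme thus lay on both sides of 0, each within a 1.5-fold interval.

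Complex III, the cytochrome bc1 complex, had 0 changes among 9 genes, also 0 at an unadjusted p under 0.05 in limma. Its catalytic nuclear subunits are the Rieske iron-sulfur protein Uqcrfs1 and cytochrome c1, Cyc1. Uqcrfs1 stood at 9.87, 10.07 and 10.01 in Vehicle and 9.80, 9.90 and 9.94 in Tamoxifen arrays, lower in each line but with overlapping groups, at -0.10 ± 0.05 (SE; adjusted p = 0.31). Cyc1 gave 0.02 ± 0.06 and changed sign after centring on all named genes. The core protein Uqcrc1 gave 0.03 ± 0.05, and of the small subunits Uqcrq gave 0.10 ± 0.07 and Uqcr11 -0.09 ± 0.08. The median of the complex was -0.05, the lowest of the 5, with 4 genes above and 5 below 0. That median was 0.0062 after centring on the tested genes and 0.02 without line 14844.

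Complex IV, cytochrome c oxidase, had 0 changes among 18 tested genes and 1 unadjusted p under 0.05 in limma, that of Cox7a1. The 10 ubiquitous subunits ran from -0.08 for Cox5a to 0.03 for Cox7a2, with a median of 0.0091. Cox5a, a subunit on the matrix side, was at -0.08 ± 0.06 (SE), and Cox7a2l, a factor that joins complexes III and IV into supercomplexes, at -0.07 ± 0.06. The 7 tested isoforms that are mainly known from particular tissues spread more widely, from -0.01 to 0.37. Of these, Cox4i2 at 0.0085 ± 0.0622 changed sign after centring on the array median or on all named genes, Cox6b2 at -0.0050 ± 0.0519 and Cox8c at -0.01 ± 0.06 did so after centring on the tested genes, and Cox8b and Ndufa4l2 gave 0.07 ± 0.06 and 0.11 ± 0.06. Cox7b2, not tested, was between 5.57 and 5.85 on all arrays.

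Cox7a1 and Cox6a2, isoforms of heart and skeletal muscle, had their largest difference within a line in line 14843. Cox7a1 was at 9.01, 9.29 and 8.97 in Vehicle and 9.75, 9.65 and 8.996 in Tamoxifen arrays, and the groups overlapped. Its fitted difference was 0.37 ± 0.13 (SE; 95% interval 0.04 to 0.71; adjusted p = 0.18), and lines 14843, 14844 and 14846 differed by 0.74, 0.35 and 0.03. It was 0.19 without line 14843, 0.38 without line 14844 and 0.55 without line 14846, with limma adjusted p of 0.37, 0.41 and 0.058. Cox6a2 was at 7.72, 7.71 and 7.75 in Vehicle and 8.32, 7.72 and 7.77 in Tamoxifen arrays, where the line 14843 value stood 0.60 above its Vehicle array and the other lines differed by 0.01 and 0.02. Its fitted difference of 0.21 ± 0.13 was 0.015 without line 14843. Over 10 tested striated muscle markers, a list written after these values were seen, differences within line 14843 ran from -0.05 to 0.18, with a median of 0.06 beside 0.06 and 0.07 in the other lines. Fitted differences were above 0 for 9 of the 10, beside 8182 of 13956 tested genes. In limma 0 of 10 changed and 0 had an unadjusted p under 0.05. Sums over all 12 listed, with the dim Myh1 and Myh2 included, were higher with Tamoxifen in each line. They went from 2239 to 2320 in line 14843, 2142 to 2279 in line 14844 and 2160 to 2235 in line 14846.

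Complex V, the ATP synthase, had 0 changes among 17 genes and 2 unadjusted p-values under 0.05 in limma, of Atp5mpl and Atp5g3. The 5 subunits of the F1 head and central stalk, where ATP is made, ran from -0.05 to 0.06 with a median of -0.01. The c ring of the membrane part turns as protons pass, and the 3 genes for it, Atp5g1, Atp5g2 and Atp5g3, encode the same mature protein behind different import sequences. Atp5g3 was at 12.58, 12.75 and 12.64 in Vehicle and 12.38, 12.54 and 12.58 in Tamoxifen arrays, without overlap, at -0.16 ± 0.06 (SE; adjusted p = 0.18). Atp5g1 and Atp5g2 gave 0.01 ± 0.05 and -0.0021 ± 0.0496, and the sign of each changed with the scaling or probe set rule. In the rest of the membrane part and the peripheral stalk, 7 of 9 genes were above 0, led by Atp5mpl at 0.15 ± 0.05, with no overlap and 3 of 3 lines higher, and by the stalk subunit Atp5o at 0.12 ± 0.06, whereas Atp5l was at -0.06 ± 0.07. Atpif1, the inhibitor of the enzyme's reverse reaction, lies outside the symbol rule and was at 13.17 ± 0.10 in Vehicle and 13.16 ± 0.03 in Tamoxifen arrays (SD, n = 3 each).

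Groups did not overlap for 11 members, 8 higher and 3 lower of 82, whereas 23.7% of all tested genes had no overlap. Of the 11, 7 were in complex I. The difference had the same sign in all 3 lines for 33 of 82 members, 23 higher and 10 lower, against 48.8% of all tested genes. By complex this was 17 of 34 in complex I, 2 of 4 in II, 2 of 9 in III, 4 of 18 in IV and 8 of 17 in V. No share for a complex was tested against the background.

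The direction of the members as a whole depended on the line. In lines 14843 and 14846, 59 and 56 of the 82 members were above 0, with medians of 0.05 and 0.03. Over all 13956 tested genes, 7605 and 7722 were above 0 in these lines, with medians of 0.02 and 0.02. In line 14844 only 29 members were above 0, with a median of -0.03. Of the 13956 tested genes 7897 were above 0 in that line, and its median over all tested genes was 0.02. The medians of complex III were farthest apart between lines, with 1 of 9 genes above 0 in line 14844 (median -0.12) against 6 and 7 in lines 14843 and 14846 (medians 0.01 and 0.04). Among the 10 ubiquitous subunits of complex IV, 0 were above 0 in line 14844, against 7 and 5 in lines 14843 and 14846. Complexes I, II, IV and V also had their lowest median in line 14844, at -0.03, -0.05, -0.02 and -0.02. In complex III, the Vehicle array of line 14844 had the highest value of all arrays for Cyc1, Uqcr10, Uqcr11, Uqcrb, Uqcrfs1 and Uqcrh. For Uqcrc1, Uqcrc2 and Uqcrq it did not. With 1 pair of arrays a line, these differences between lines have no replicate and were not tested. A high Vehicle array and a low Tamoxifen array cannot be told apart within a single line. Leaving out line 14844 moved the median of all members from 0.01 to 0.04.

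**Figure D4:**
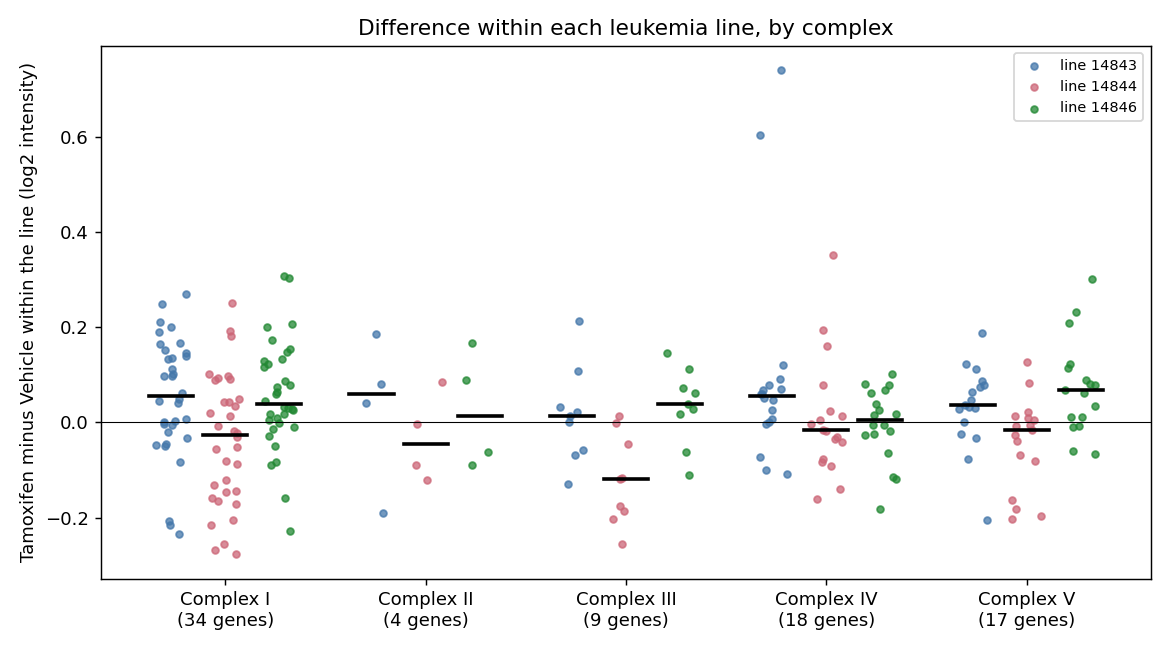
Tamoxifen minus Vehicle difference within a line (y axis, log2 intensity) for each tested subunit gene (points), by complex (x axis) and by line (colour), with the median of each set as a black bar. In line 14844 the bar lies below 0 in every complex, lowest at -0.12 in complex III, and the 2 highest points, in line 14843, are Cox7a1 and Cox6a2.

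Across the 82 members, differences within a line correlated at a Pearson r of 0.60 between lines 14843 and 14844, 0.29 between 14843 and 14846, and 0.36 between 14844 and 14846. Over all 13956 tested genes the values were 0.67, 0.49 and 0.58. Genes on an array share its labelling and scaling, so they are not independent replicates, and the values describe these arrays only.

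Between the 3 leukemias, no respiratory chain gene passed the test of line. Limma's moderated F test of line, over both treatments, called 0 of 82 members at an adjusted p under 0.05, against 3.11% of all tested genes. At an unadjusted p under 0.05 there were 8, or 9.76%, against 19.3% of all tested genes, and no other test of line was run. The median span between the highest and lowest line mean was 0.14 for members and 0.14 for all tested genes, whereas the largest was 0.49 for members and 4.71 for all tested genes. That widest span among members was the one of Cox7a1, at 9.38, 9.47 and 8.98 in lines 14843, 14844 and 14846 (n = 2 arrays each, adjusted p = 0.28). Ndufa2, an accessory subunit of complex I, had the smallest p and was at 10.76, 11.17 and 11.05, with an adjusted p of 0.15.

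For 17 members the array held 25 further probe sets, all above the filter on dim genes, and 21 had the sign of the probe set used. Their differences ran from -0.20 for Cox7a2l to 0.14 for Ndufa11. The probe set of Ndufs3 not used gave 0.13 ± 0.04 (SE) beside 0.14 for the one used, and the 5 further probe sets of Atp5l gave -0.08 to -0.03 beside -0.06. Cox7a2l had the largest distance, 0.13, between its probe sets. Ndufv1, Ndufs1 and Ndufa8 each had 1 probe set, so their values have no such check.

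Promoter sequences were available for 67 members, in 72 windows. AGGCCT, the motif of Zfx, was in 5 of them (6.94%), against 10.3% of 32851 promoters of the same length in the RefSeq table. The windows around it are shown, because these are the subunit promoters that hold the motif of the deleted factor, with the motif in capitals (GRCm38.p6).

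Ndufv1, chr19:4012828-4012857, minus strand: acatctcccagaAGGCCTagcacgagagta

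Ndufc2, chr7:97399774-97399803, plus strand: ctgaagagccatAGGCCTgggggcaagtaa

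Ndufa5, chr6:24527900-24527929, minus strand: ttcatggtgctcAGGCCTgcttccaccctc

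Atp5e, chr2:174464065-174464094, minus strand: cttccgctactcAGGCCTgaccttcctgct

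Atp5g2, chr15:102670998-102671026, minus strand: tgggagcaggtaAGGCCTtgAGGCCTcgc

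The 5 genes differed by 0.28 for Ndufv1, -0.04 for Ndufc2, 0.02 for Ndufa5, -0.03 for Atp5e and -0.0021 for Atp5g2. Of them 1 changed, Ndufv1, which was the only changed member, beside 6.23% of all tested genes. Windows with the motif had a median difference of -0.0021 and those without it 0.01. Motifs of factors known to drive respiratory genes were in the members' promoters at these shares, set against all promoters: TGCGCA of Nrf1 in 25% against 7.76%, CCGGAAG of ETS factors in 23.6% against 8.86% and AAGATGG of Yy1 in 13.9% against 6.34%, on either strand. Median differences with and without these motifs were 0.0045 and 0.01 for TGCGCA, 0.01 and 0.01 for CCGGAAG, and 0.08 and 0.0082 for AAGATGG. These shares are descriptions, with no test, and the last letters of CCGGAAG can be the first of AAGATGG.

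Genes that build or feed the complexes were tested in the same fit. Of 47 tested assembly factors 1 fell and 0 rose, beside 4.93% lower and 1.3% higher over all tested genes, and the median was 0.04. At an unadjusted p under 0.05 in limma there were 8 of 47, against 23.8% of all tested genes. The gene that fell was Cox14, which acts in the assembly of the mitochondrially encoded Cox1 subunit of complex IV. Cox14 was at 9.73, 9.57 and 9.70 in Vehicle and 9.14, 9.22 and 8.96 in Tamoxifen arrays, without overlap of the groups. Its difference was -0.56 ± 0.08 (SE), or 1.47-fold lower, and its adjusted p in limma was 0.026. It passed under 10 of 12 alternatives (0.014 to 0.069), also without line as a block at 0.036, and missed without line 14843 or 14844, at 0.063 and 0.069.

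The remaining lists held no change in limma, where 6.23% of all tested genes changed and 23.8% had an unadjusted p under 0.05. Of 19 electron carriers and ubiquinone synthesis genes 0 changed and 6 had an unadjusted p under 0.05, led by Coq3 at 0.25 ± 0.06 (SE) and Coq8b at -0.34 ± 0.08, with adjusted p of 0.065 and 0.066. Of 19 regulators of mitochondrial biogenesis and mitochondrial DNA expression 0 changed and 4 had an unadjusted p under 0.05. Among them Ssbp1, which binds single-stranded mitochondrial DNA, gave 0.21 ± 0.05 and Polg, the mitochondrial DNA polymerase, -0.27 ± 0.07. Of 3 tested carriers 0 changed, and the adenine nucleotide carrier Slc25a4 and the phosphate carrier Slc25a3 gave -0.18 ± 0.07 and 0.03 ± 0.06, the former with the only unadjusted p under 0.05. The mitochondrial genome was represented by ND3 of complex I at 0.10 ± 0.06 and COX2 of complex IV at 0.0098 ± 0.0533, and 0 of these 2 changed or had an unadjusted p under 0.05.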

How the data were processed

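Total RNA (200 ng) from sorted cells was labelled with biotin, per the labels' protocols, and hybridised to 6 arrays. The deposited values are linear intensities for 35556 probe sets, for which the submitters' processing notes name RMA and Affymetrix Expression Console 1.1 as the authors' tools. RMA equalises signal distributions, so overall shifts between arrays are largely removed, although array medians still ran from 202 to 208. The log2 was taken. A gene was represented by its probe set with 1 symbol and the highest mean (19938 genes), and genes at or above the 30th percentile of means (log2 6.70) were tested. Limma 3.58.1 (R 4.3.3, default eBayes, 2 residual degrees of freedom plus 3.47 from moderation) fitted line and treatment, with Benjamini-Hochberg adjustment over all 13956 genes, and the steps were tested on simulated data. Array number limits precision. Line was fitted, so p-values rest on the spread of the within-line treatment differences between 3 leukemias. That spread is moderated over all tested genes.

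Line pairs the samples, since the labels name the same leukemia in both groups. Deviations from group means correlated at 0.64, 0.68 and 0.68 within lines. The members, lists, motifs and tests were chosen with earlier results of these data known. Named were changed members, the 2 highest and 2 lowest differences in each complex, complex II, core complex I subunits, Uqcrfs1, Cyc1, c ring genes, tissue isoforms of complex IV, and from other lists changed genes or else the 2 smallest p. Ndufa1, Ndufa2, Ndufa3, Ndufa11, Ndufb6, Uqcr10, Uqcrb, Uqcrc2, Uqcrh, Cox7a2, Itgam, Lyz2, Ptcra, Ndufa5, Ndufc2, Atp5e and Atpif1 were named after their values were seen. Alternatives were no block, other filters, scalings and eBayes settings, averaged probe sets and leaving out each line. The 2 centrings on gene medians and a striated muscle list were added after seeing the data.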

Additional observations from a re-analysis of the deposited data

How the results depend on the processing

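The number of changed members was 1 in the main analysis, 2 without the filter on dim genes, after centring arrays on their median and with trend and robust moderation (Ndufa8 joining Ndufv1), and 0 without line as a replicate block or when any line was left out (range 0 to 0). It was 1 under the other 5 settings, but after centring on all named genes the member was Ndufa8 at -0.27 (Ndufv1 at 0.25). The number that differed between lines was 0 under every setting in which line was a term. Centring on the tested genes, added after seeing the data, moved medians to 0.070 for all members, 0.078, 0.086, 0.069 and 0.069 for complexes I, II, IV and V, and turned the signs of Atp5g2 (0.057), Cox6b2 (0.054), Cox8c (0.046), Ndufs7 (0.047) and Sdhd (0.051). It also moved the share of lower genes among all calls from 79.1% to 57.7%. Over all tested genes, 870 changed in the main analysis, 295 without the block, and 498, 70 and 669 without line 14843, 14844 and 14846. Other uncalled values near 0 turned too: Atp5g1 to -0.0035 and Cox4i2 to -0.0050 after centring on the array median, Atp5g1 to -0.018, Cox4i2 to -0.019 and Cyc1 to -0.010 after centring on all named genes, Sdhd to 0.015 after quantile normalization and Atp5g2 to 0.0035 with averaged probe sets. Leaving out a line gave ranges that cross 0 of -0.016 to 0.049 for Atp5g1, -0.018 to 0.0099 for Atp5g2, -0.13 to 0.0066 for Atp5l, -0.026 to 0.073 for Cox4i2, -0.020 to 0.025 for Cox6b2, -0.054 to 0.038 for Cox8c, -0.027 to 0.084 for Cyc1, -0.026 to 0.010 for Ndufs7 and -0.033 to 0.019 for Sdhd. The causes were not tested. Of 380 comparisons of 32 named members with an alternative, 346 kept direction and side of the threshold, and fits with 1 line left out have 1 residual degree of freedom, which limits their calls.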
